A study of Mus musculus with 8 samples.

Results

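The genes of the proteasome were examined in fibroblasts sorted from the dermis of mice fed a high fat diet (HFD), and in those of mice on a normal diet (ND). They were taken as all genes whose symbol begins with Psma to Psmg followed by a number in the annotation of the array platform. That gave 47 of the 17097 genes that at least 1 probe set names alone, with 74 probe sets between them. Where a gene had several probe sets, its main one was chosen by the highest mean level over the 7 arrays compared, so the order of levels within a gene is a description. The 47 comprise 14 constitutive subunits of the core particle (7 alpha and 7 beta), 8 of the regulatory base and 8 of the lid, or 30 constitutive subunits of the 26S proteasome in all. The other 17 are 3 immunoproteasome subunits, 3 activators, 1 inhibitor, 6 assembly chaperones, the testis subunit Psma8, the thymus subunit Psmb11, and Psmc3ip and Psme3ip1, which are not subunits but carry such symbols. Psmc6, Psmd10, Psme2b and Psme4 were not analysed here.

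The HFD group held 4 specimens and the ND group 4, all from female mice put on their diet at 2 months of age and kept on it for 6 months. The strain and the make-up of the diets are not given in the sources used here. From each specimen 10000 cells of the collagenase-digested dermis were sorted for Pdgfra and CD34 and against CD45, CD117, CD24, CD31 and EpCam, and their RNA was amplified over 20 cycles before hybridisation. The labels mark ND 4 as failing quality control but do not say how, and HFD 1 to 4 were compared with ND 1 to 3. Nothing in the labels ties 2 specimens to 1 mouse, and the p-values measure only the spread between these specimens. With 7 arrays, the precision of every value is limited by their number. Levels are log2 values, and differences are HFD minus ND on that scale.

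The proteasome is the protease that degrades most ubiquitin-tagged proteins of the cytosol and nucleus. Its core particle is a barrel of stacked rings, in which alpha subunits form the gated ends and beta subunits the inner chamber with the active sites. The regulatory particle caps the barrel. Its lid takes ubiquitin off the substrate, and the ATPases of its base unfold the protein and feed it in. Under interferon, cells exchange the catalytic beta subunits for those of the immunoproteasome, whose peptides are presented on class I molecules.

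In fibroblasts from HFD mice, 3 of the 47 proteasome genes were higher than in ND fibroblasts (limma, adjusted p under 0.05 over all genes), 0 were lower and 44 did not pass. The 3 were the lid gene Psmd7 and the alpha subunit genes Psma6 and Psma3, with changes between 1.29-fold and 1.52-fold. They make 6.38% of the proteasome genes, where 5.35% of all genes passed, 2.62% as higher and 2.73% as lower. All but 2 of the 47 were at or above the median gene in level. Of the 8554 genes at or above it, 392 passed as higher and 416 as lower. At an unadjusted p under 0.05, 17 proteasome genes (36.2%) were higher and 2 (4.26%) lower, beside 12.3% and 9.83% of all genes. Of the 8554 brighter genes, 1549 were higher and 1325 lower at that threshold. The median difference was 0.16 over the 47 genes and 0.21 over the 30 constitutive subunits, against 0.02 over all genes. Of the 30, 29 had a positive difference, where 56.2% of all genes did, and 14 had every HFD array above ND 1 to 3, where 9.95% of all genes did. Of the 8554 brighter genes, 4630 had a positive difference and 1274 had every HFD array above ND 1 to 3. Of the other 17 members, 9 differences were positive and 8 negative, with a median of 0.07.

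The calls rest on most of the arrays. With ND 3, HFD 2, HFD 3 or HFD 4 left out, 0 proteasome genes passed, and with ND 2 left out 1 did, Psmd7. The loss ran through the whole table. Of all 17097 genes 914 passed in the main fit, and 11, 212, 6 and 9 without ND 3, HFD 2, HFD 3 and HFD 4. Without ND 2, 485 did. With ND 4 included 0 proteasome genes and 6 of all genes passed. When genes dimmer than the median gene were left out, 7 passed as higher, where 8.17% of the genes kept did. The median of the 30 constitutive subunits stayed between 0.17 and 0.26 when any 1 array was left out, and it was 0.18 with ND 4 included.

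**Figure D1:**
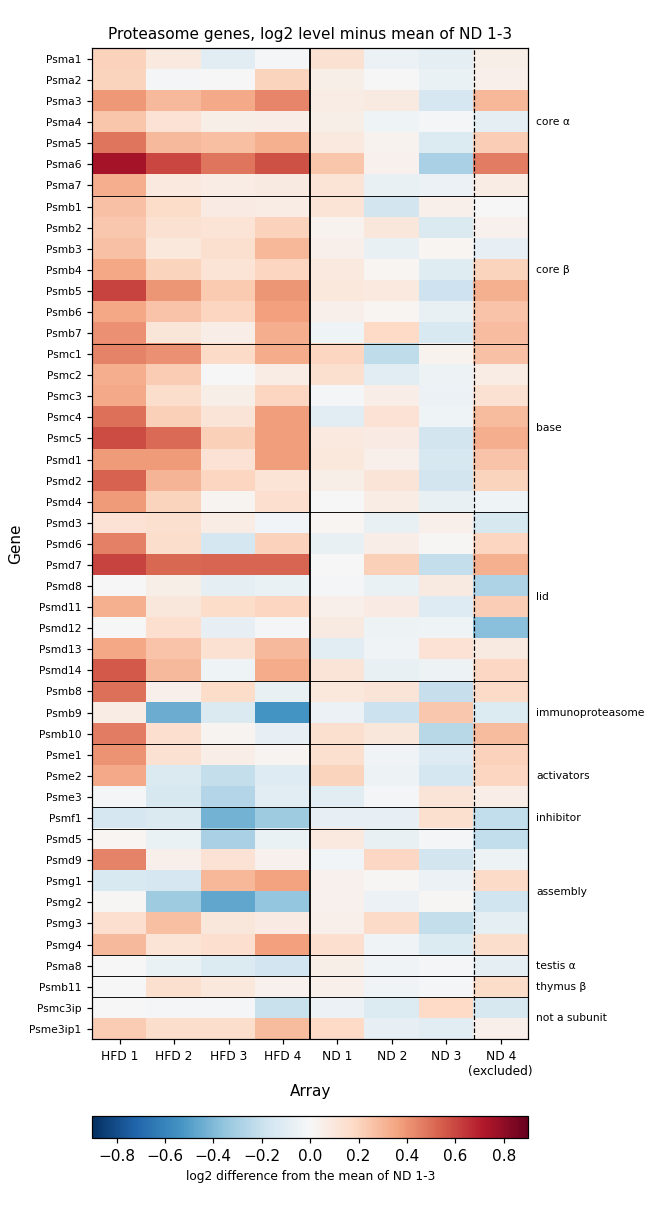
Level of each of the 47 proteasome genes on each array (log2, minus the mean of ND 1 to 3), in rows by subunit class and with HFD arrays left of ND arrays. Most cells of the core, base and lid genes are red (higher) in the HFD columns, in most genes deepest in HFD 1, and ND 4, which was left out of the comparison, is also red for many of them.

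Psmd7, a lid subunit that pairs with the deubiquitinase Psmd14, stood at 9.66, 9.57, 9.58 and 9.58 on HFD 1 to 4, and at 9.05, 9.27 and 8.84 on ND 1 to 3. The HFD arrays lay close together and the groups did not overlap. Psmd7 rose by 0.54 (SE 0.10, adjusted p = 0.0275 in limma), with means of 9.60 ± 0.04 in HFD (SD, n = 4) and 9.05 ± 0.22 in ND (SD, n = 3). Its 2 other probe sets, which were dimmer, differed by 0.01 and 0.06 and did not pass.

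Psma6, a subunit of the alpha ring, stood at 10.06, 9.91, 9.79 and 9.88 on HFD 1 to 4, and at 9.56, 9.35 and 9.02 on ND 1 to 3. It rose by 0.60 (SE 0.13, adjusted p = 0.0318 in limma), the largest difference of the 47 genes, and ND 4, at 9.77, lay just under the lowest HFD array. Psma3, another alpha subunit, stood at 10.89, 10.79, 10.84 and 10.94 on HFD 1 to 4, against 10.57, 10.58 and 10.35 on ND 1 to 3. It rose by 0.37 (SE 0.08, adjusted p = 0.0368 in limma). No array of ND 1 to 3 reached the HFD range, but ND 4, at 10.80, lay within it.

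All 7 alpha subunits had a positive difference, from 0.05 for Psma1 to 0.60 for Psma6, with a median of 0.14. Besides the 2 called, Psma5 differed by 0.34 (SE 0.09, adjusted p = 0.0597 in limma), with 9.43 to 9.64 in HFD and 9.04 to 9.25 in ND. Psma1, Psma2, Psma4 and Psma7 differed by 0.05 to 0.14, and their groups overlapped.

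All 7 constitutive beta subunits also had a positive difference, with a median of 0.21, and none passed. Psmb5, which carries the chymotrypsin-like active site, stood at 9.84, 9.63, 9.47 and 9.63 on HFD 1 to 4, against 9.33, 9.32 and 9.05 on ND 1 to 3. Its difference was 0.41 (SE 0.11, adjusted p = 0.0602 in limma). Psmb6, with the caspase-like site, stood at 10.05, 9.96, 9.90 and 10.07 in HFD, against 9.75, 9.72 and 9.64 in ND, a difference of 0.29 (SE 0.08, adjusted p = 0.0627 in limma). Both catalytic subunits were higher on every HFD array than on ND 1 to 3. Psmb7, with the trypsin-like site, differed by 0.23 (SE 0.12), and its groups overlapped, with 9.03 to 9.38 in HFD and 8.83 to 9.15 in ND. The groups did not overlap either for the structural subunits Psmb2 (difference 0.18), Psmb3 (0.20) and Psmb4 (0.21), while for Psmb1 (0.14) they did. The lowest HFD array and the highest of ND 1 to 3 were at 10.89 and 10.87 for Psmb2. They were at 10.34 and 10.29 for Psmb3, and at 10.66 and 10.63 for Psmb4.

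**Figure D2:**
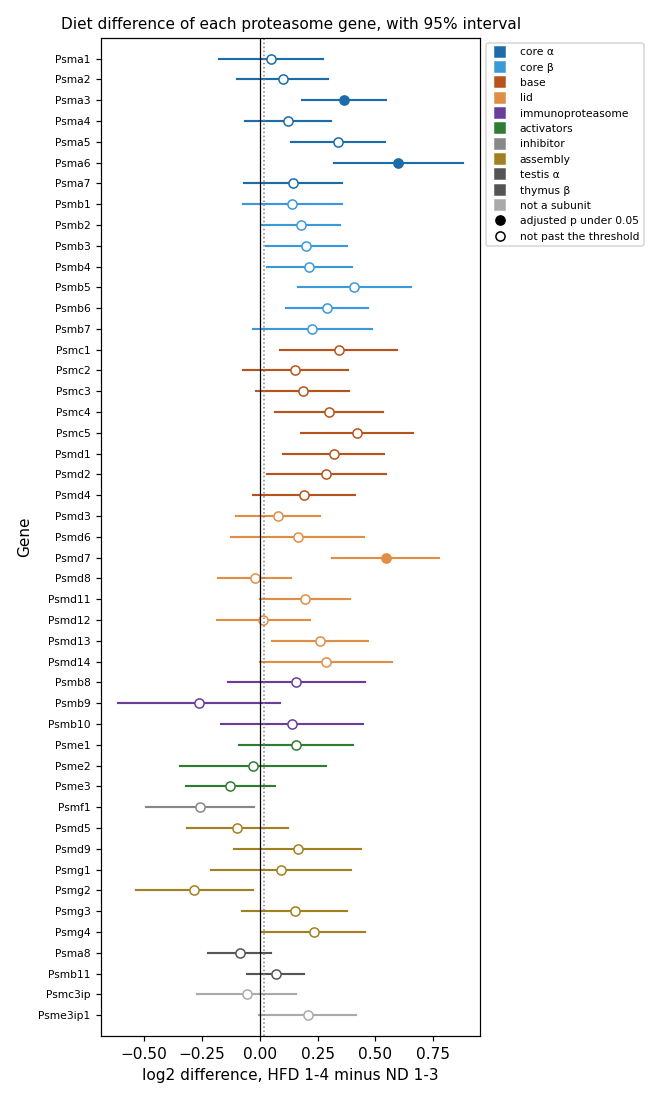
Log2 difference of each proteasome gene, HFD 1 to 4 minus ND 1 to 3, with its 95% interval from limma (horizontal bars), coloured by class, filled where the adjusted p was under 0.05, with the median of all genes as a dotted line. The points of all core and base genes lie to the right of 0, while those of the other members lie on both sides.

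All 8 measured subunits of the base had a positive difference, with a median of 0.29, and none passed. Psmc5, one of the ATPases, stood at 9.95, 9.87, 9.58 and 9.74 on HFD 1 to 4, against 9.45, 9.44 and 9.20 on ND 1 to 3. It had the largest difference of the base, 0.42 (SE 0.11, adjusted p = 0.0533 in limma). The scaffold subunit Psmd1 differed by 0.32 (SE 0.10), with 9.90, 9.90, 9.64 and 9.89 in HFD and 9.61, 9.56 and 9.37 in ND. For Psmd1 and for Psmd2 (0.29), the other large scaffold, no ND array of the comparison reached the HFD range. In Psmd2 the margin was narrow, with the lowest HFD array at 9.23 and the highest of ND 1 to 3 at 9.22. The ATPases Psmc1 (0.34), Psmc4 (0.30), Psmc3 (0.19) and Psmc2 (0.15) and the ubiquitin receptor Psmd4 (0.19) had groups that overlapped. A dimmer probe set of Psmc4 differed by 0.49 (SE 0.10) and passed when every probe set was tested (adjusted p = 0.0311 in limma).

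Of the 8 lid subunits, 7 had a positive difference, with a median of 0.18, and 1 passed, Psmd7. The difference was 0.26 for Psmd13 and 0.20 for Psmd11, both without overlap of HFD with ND 1 to 3. Both margins were narrow. The lowest HFD array and the highest of ND 1 to 3 stood at 8.48 and 8.47 for Psmd13, and at 9.75 and 9.72 for Psmd11. Psmd14, the deubiquitinase of the lid, differed by 0.29 (SE 0.13), with 9.76, 9.50, 9.17 and 9.54 in HFD and 9.32, 9.14 and 9.16 in ND, so that HFD 3 lay among the ND arrays. Psmd3, Psmd6, Psmd8 and Psmd12 differed by −0.02 to 0.16. Psmd11 has 4 dimmer probe sets, of which 1 differed by 0.14 without overlap and the other 3 by −0.08 to −0.01.

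**Figure D3:**
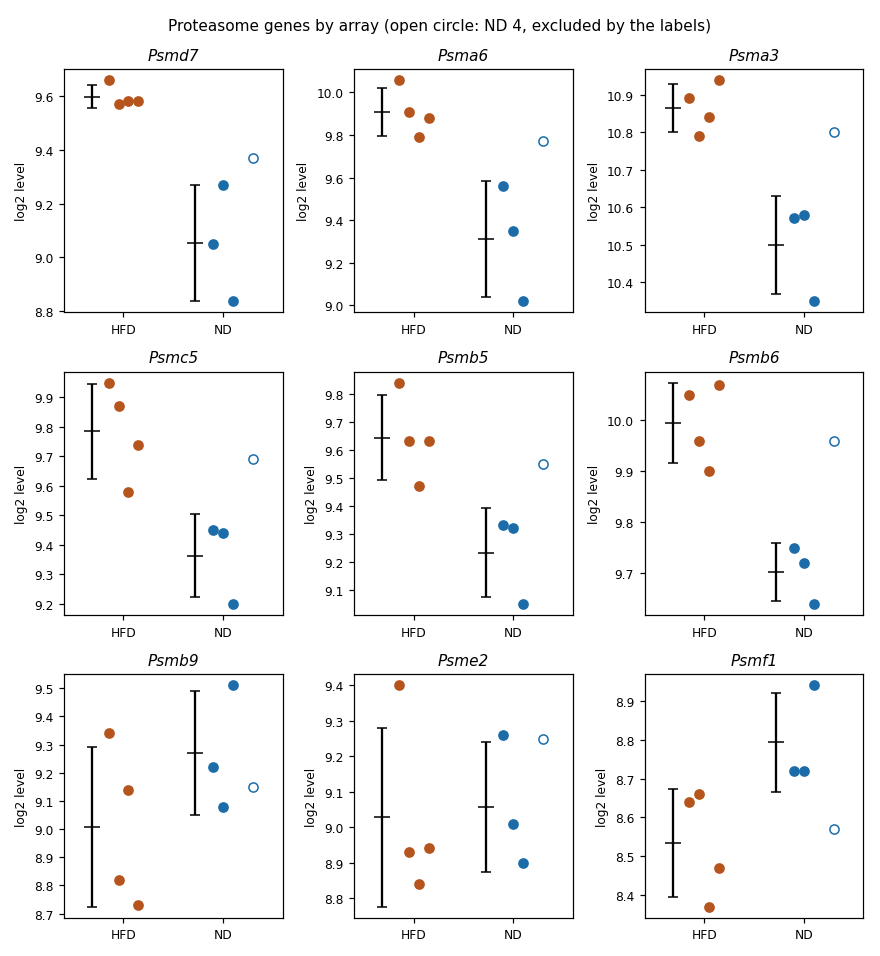
Log2 level of 9 proteasome genes on each array, HFD left of ND, with filled points for the arrays compared, an open circle for ND 4, and bars for mean ± SD. The first 6 genes show HFD above ND 1 to 3 with no overlap, Psmb9 and Psme2 overlap, and Psmf1 lies lower in HFD.

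By their main probe sets, 2 of the 3 immunoproteasome subunits had a positive difference and 1 a negative one. Psmb8, which replaces Psmb5, stood at 10.95, 10.50, 10.62 and 10.39 in HFD and 10.55, 10.57 and 10.25 in ND (difference 0.16, SE 0.13). Psmb10, which replaces Psmb7, differed by 0.14 (SE 0.14), with 10.14 to 10.68 in HFD and 9.97 to 10.36 in ND. Psmb9, which replaces Psmb6, differed by −0.26 (SE 0.16), with 9.34, 8.82, 9.14 and 8.73 in HFD and 9.22, 9.08 and 9.51 in ND. None passed, and in each the HFD and ND arrays overlapped. The 95% intervals ran from −0.14 to 0.46 for Psmb8, from −0.17 to 0.45 for Psmb10 and from −0.61 to 0.09 for Psmb9. The other probe sets of Psmb9 differed by 0.19 and −0.05, so its direction depends on the probe set.

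None of the activators passed. Psme1 and Psme2, which together form the interferon-inducible activator ring, differed by 0.16 (SE 0.11) and −0.03 (SE 0.14). HFD 1 was the highest of the HFD arrays in both, at 10.06 for Psme1 and 9.40 for Psme2, and the other HFD arrays lay at 9.68 to 9.79 and at 8.84 to 8.94, within or near the ND ranges of 9.54 to 9.80 and 8.90 to 9.26. Psme3, the nuclear activator, differed by −0.13 (SE 0.09), while its dimmer probe set differed by 0.22. Psmf1, an inhibitor of the core particle in the test tube, had a main probe set lower on every HFD array, with 8.64, 8.66, 8.37 and 8.47 in HFD and 8.72, 8.72 and 8.94 in ND. That difference of −0.26 (SE 0.10, adjusted p = 0.180 in limma) did not pass, as 1 of 47 genes lower without overlap (2.13%) beside 7.99% of all genes. A dimmer probe set of Psmf1, with 6.34, 6.72, 6.49 and 6.26 in HFD and 6.06, 5.97 and 5.82 in ND, went the other way and passed when every probe set was tested (0.50, SE 0.11, adjusted p = 0.0389 in limma). No direction for Psmf1 can therefore be given.

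Among the assembly chaperones, Psmg1 and Psmg2 form one dimer that builds the alpha ring and Psmg3 and Psmg4 another. Psmg2 differed by −0.28 (SE 0.11, adjusted p = 0.180 in limma), with 7.84, 7.51, 7.36 and 7.48 in HFD and 7.87, 7.78 and 7.84 in ND. HFD 1 alone lay among the ND arrays, and without HFD 1 the difference was −0.38 and passed (adjusted p = 0.0401 in limma). Calls rose over the whole table without HFD 1, to 1072 of all genes from 914 in the main fit. Psmg4 differed by 0.23 (SE 0.10, adjusted p = 0.209 in limma), Psmg3 by 0.15 and Psmg1 by 0.09. The base chaperones Psmd9 and Psmd5 differed by 0.16 and −0.10. Psma8 and Psmb11, whose products belong to testis and thymus, were the 2 members dimmer than the median gene (5.52 and 5.28 against 6.77) and differed by −0.09 and 0.07. Psme3ip1 differed by 0.21 and Psmc3ip by −0.06.

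Of the 17 genes with several probe sets, 12 had the same sign in all of them, and Psma1, Psmb9, Psmd11, Psme3 and Psmf1 did not. Tested one by one over 28898 probe sets, 5 of the 74 passed as higher and 0 as lower, where 4.75% of all probe sets passed in either direction. Of the 74, 57 had a positive difference.

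Promoter windows of 300 bases, from 250 before to 50 after the start of the gene (RefSeq, GRCm38.p6), were found for 39 of the 47 genes and 24 of the 30 constitutive subunits. They were searched on both strands for TGACNNNGC, the core of the antioxidant response element that the proteasome gene regulator Nfe2l1 binds, for the NF-Y box CCAAT, and for the interferon response motif, a pair of GAAA with 2 bases between them. Of the 24, 3 held TGACNNNGC (12.5%), 10 held CCAAT (41.7%) and 2 held the interferon response motif (8.33%). In the windows of 13605 genes measured on the arrays the shares were 16.1%, 42.3% and 3.59%. The catalytic genes Psmb5 and Psmb6 are 2 of the 3 with TGACNNNGC, the third being Psmd12, whose difference was 0.02. The other constitutive catalytic gene, Psmb7, had no window and was not searched, and 4 of the 7 beta genes had one. The windows of Psmb5 and Psmb6 and of the called genes Psma3 and Psma6 are shown with matches in capitals. Psmd7 was not among the genes matched.
Psmb5 (chr14:54617946-54618245, minus strand; capitals mark TGACNNNGC): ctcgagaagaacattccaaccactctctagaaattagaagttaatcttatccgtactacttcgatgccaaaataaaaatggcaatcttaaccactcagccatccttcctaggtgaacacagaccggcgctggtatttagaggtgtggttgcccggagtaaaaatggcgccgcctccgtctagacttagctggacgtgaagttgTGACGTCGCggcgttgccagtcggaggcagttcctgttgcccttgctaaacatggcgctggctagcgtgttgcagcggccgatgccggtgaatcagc
Psmb6 (chr11:70525107-70525406, plus strand; capitals mark TGACNNNGC): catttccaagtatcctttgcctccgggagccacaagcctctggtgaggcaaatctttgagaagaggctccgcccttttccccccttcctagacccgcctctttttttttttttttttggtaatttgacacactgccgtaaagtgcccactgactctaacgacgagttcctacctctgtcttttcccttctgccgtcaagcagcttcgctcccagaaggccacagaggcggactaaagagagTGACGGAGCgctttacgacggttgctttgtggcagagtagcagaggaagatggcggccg
Psma3 (chr12:70974373-70974672, plus strand; capitals mark CCAAT or its reverse complement): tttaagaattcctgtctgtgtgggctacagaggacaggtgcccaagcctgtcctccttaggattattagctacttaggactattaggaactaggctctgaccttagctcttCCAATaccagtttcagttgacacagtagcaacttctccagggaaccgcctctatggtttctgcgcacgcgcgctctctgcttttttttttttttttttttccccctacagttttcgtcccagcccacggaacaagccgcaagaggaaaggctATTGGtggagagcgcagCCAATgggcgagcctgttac
Psma6 (chr12:55383972-55384271, plus strand; capitals mark CCAAT or its reverse complement): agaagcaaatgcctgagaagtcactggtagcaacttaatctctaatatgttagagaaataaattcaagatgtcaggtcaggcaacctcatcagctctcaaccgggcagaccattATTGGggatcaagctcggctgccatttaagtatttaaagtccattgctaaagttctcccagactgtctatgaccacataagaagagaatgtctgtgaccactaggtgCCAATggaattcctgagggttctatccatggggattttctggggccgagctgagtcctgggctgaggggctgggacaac
The match lies at −47 in Psmb5 and at −9 in Psmb6, counted to its first base from the start of the gene. Psma3 holds 3 CCAAT matches and this window of Psma6 holds 2, while the other listed window of Psma6 holds none of the motifs.

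Genes that act with the proteasome were read from 5 lists, of which 32 genes were measured. Of these, 4 rose (Pomp, Ufd1, Nploc4 and Ngly1), 0 fell and 28 did not pass, where 2.62% of all genes passed as higher and 2.73% as lower. The 4 calls were all lost with ND 3, HFD 2, HFD 3 or HFD 4 left out, and with ND 4 included. Over all genes 11, 212, 6, 9 and 6 passed in those settings, beside 914 in the main fit. Without ND 1, 2 of the 4 passed, Pomp and Ngly1, and without ND 2, 3 passed, all but Ngly1. Pomp, the chaperone that matures the core particle, was the only one of 13 proteasome partners to pass. It stood at 9.82, 9.74, 9.73 and 9.69 on HFD 1 to 4, against 9.39, 9.23 and 9.07 on ND 1 to 3, and rose by 0.52 (SE 0.09, adjusted p = 0.0248 in limma). The groups were well apart, but ND 4, at 9.73, lay within the HFD range. Sem1, a small lid subunit whose symbol the rule does not cover, differed by 0.29 (SE 0.09, adjusted p = 0.0789 in limma). The proteasome-associated thioredoxin Txnl1 differed by −0.44 (SE 0.11, adjusted p = 0.0533 in limma), with 8.73, 8.63, 8.44 and 8.60 in HFD and 8.86 to 9.27 in ND, so that the groups did not overlap. Sem1 and Txnl1 were chosen after their values were seen. The median of the 13 partners was 0.05, and 8 were positive.

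The Vcp segregase pulls ubiquitin-tagged proteins out of membranes and complexes before they are degraded. Vcp itself was not analysed here. Of the 5 other genes of this list, all measured, all differences were positive and 2 passed. Ufd1 stood at 8.09, 8.23, 7.82 and 8.10 in HFD and 7.48, 7.70 and 7.46 in ND, and rose by 0.51 (SE 0.11, adjusted p = 0.0356 in limma). Its partner Nploc4 stood at 8.82, 8.83, 8.80 and 8.94 in HFD and 8.40, 8.59 and 8.43 in ND, and rose by 0.37 (SE 0.09, adjusted p = 0.0408 in limma). The 2 encode the dimer that brings ubiquitin-tagged substrates to Vcp, and neither gene overlapped between HFD and ND 1 to 3. The other probe set of Ufd1, slightly dimmer, differed by 0.22 (SE 0.11). The median of the list was 0.27.

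Of 7 measured regulators of proteasome genes, Ngly1 rose by 0.38 (SE 0.09, adjusted p = 0.0442 in limma) and 6 did not pass. It stood at 7.71, 7.88, 7.71 and 7.86 in HFD and 7.52, 7.41 and 7.29 in ND. Ngly1 removes sugars from Nfe2l1, a step that this transcription factor needs to become active. Nfe2l1 itself differed by 0.22 (SE 0.09, adjusted p = 0.160 in limma), with 8.14 to 8.27 in HFD and 7.88 to 8.05 in ND, so that its groups did not overlap. Its Maf partners Maff and Mafk differed by 0.37 and 0.36 (adjusted p = 0.0942 and 0.0896 in limma), Mafg by 0.02, and the related factors Nfe2l2 and Nfe2l3 by 0.04 and −0.19. Nfe2l1 and these others were chosen after their values were seen.

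Of the 6 measured genes of antigen processing and interferon, none passed, and the median was 0.06. The one with the smallest p, Tapbp, which tethers class I molecules to the peptide transporter, differed by −0.25 (SE 0.08, adjusted p = 0.103 in limma). Without HFD 1 it passed, at −0.30 (adjusted p = 0.0497 in limma), where 1072 of all genes passed, beside 914 in the main fit. Of ubiquitin genes and activating enzymes 1 of 6 was measured, Uba6, which differed by 0.03.

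**Figure D4:**
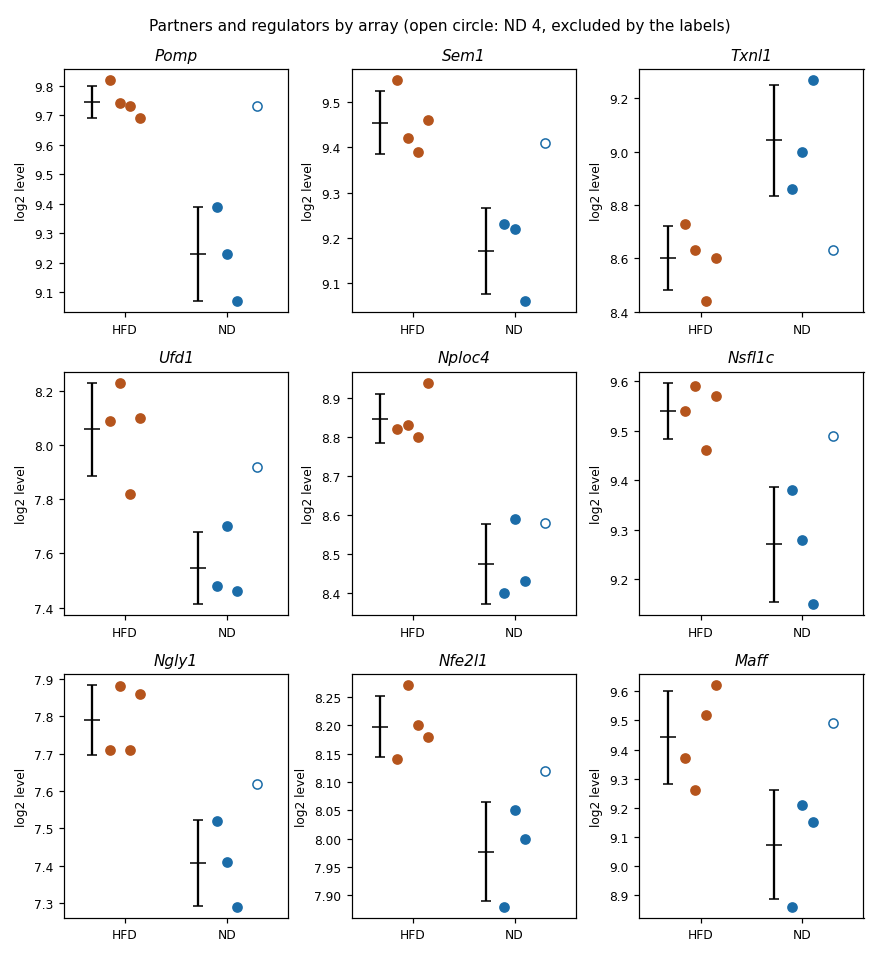
Log2 level of 9 partners and regulators on each array, HFD left of ND, with filled points for the arrays compared, an open circle for ND 4, and bars for mean ± SD. Only genes without overlap are drawn. HFD lies above ND 1 to 3 in every panel but Txnl1, which lies lower in HFD, and ND 4 lies within the HFD range for Pomp, Sem1, Txnl1, Ufd1, Nsfl1c and Maff. Without overlap were 4 higher and 2 lower of 13 partners, 3 higher of 5 segregase genes and 3 higher of 7 regulators. Of all genes 9.95% were higher and 7.99% lower without overlap.

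Across single arrays, the median of the 30 constitutive subunits lay 0.35, 0.20, 0.12 and 0.21 above the mean of ND 1 to 3 on HFD 1 to 4, and at 0.05, 0.03 and −0.06 on ND 1, 2 and 3. HFD 1 was the highest HFD array in 24 of the 30, beside 4471 of all 17097 genes. ND 3 was the lowest of ND 1 to 3 in 17 of the 30, beside 6736 of all genes. With both left out, an alternative chosen after seeing this, the median was 0.12, 29 of 30 were positive and 0 passed. ND 4 lay at 0.19, above HFD 3 and below HFD 2. It was above all of ND 1 to 3 in 17 of the 30 genes (56.7%) and in 23 of the 47 (48.9%), where 32.4% of all genes were. Nearness of ND 4 to the HFD arrays was not particular to these genes. Over all probe sets, the SD of the difference from ND 4 was 0.180 to 0.205 for HFD arrays and 0.216 to 0.300 for ND 1 to 3. Against all 4 ND arrays, 6 of the 30 had no overlap (20.0%), beside 4.18% of all genes, namely Psma5, Psma6, Psmb2, Psmb3, Psmd7 and Psmd13. Lower without overlap against all 4 were 0 of the 30, beside 2.68% of all genes.

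A sign of RNA quality also differed between the groups compared. The arrays carry probe sets at both ends of Gapdh and Actb, and the level at the 3′ end minus that at the 5′ end averaged −0.40, −0.44, −0.38 and −0.44 on HFD 1 to 4, against −0.29, −0.34 and −0.18 on ND 1 to 3, and −0.37 on ND 4. With it as a covariate the median of the 30 was 0.14, 26 were positive and 0 proteasome genes passed at an unadjusted p under 0.05. The differences of Psmd7, Psma6 and Psma3 became 0.25, 0.27 and 0.17 (adjusted p = 0.999 each in limma), and 0 of all genes passed, with 604 at an unadjusted p under 0.05. Since this measure lay lower on every HFD array than on ND 1 to 3, the fit can hardly tell it from diet. Its part in the result was otherwise not tested.

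The sorted cells carried their defining transcript Cd34 at 12.10 ± 0.05 in HFD (SD, n = 4) and 12.08 ± 0.02 in ND (SD, n = 3), while the probe set of Pdgfra was dim, at 6.27 and 5.92. The 10 fibroblast markers averaged 11.30 to 11.38 in HFD and 11.33 to 11.39 in ND, and 1 of them, Lum, passed as lower. Of 18 keratinocyte markers, 17 were positive with a median of 0.36, 0 passed as higher and Jup as lower, and their mean was 6.60, 7.76, 7.17 and 7.13 on HFD 1 to 4 and 6.86, 6.52 and 6.67 on ND 1 to 3. HFD 1, where the constitutive subunits were highest, had a keratinocyte mean below that of ND 1 and ND 3. In ND 4, whose median of the subunits was 0.19, the keratinocyte mean was 7.18, above all of ND 1 to 3. With the keratinocyte mean as a covariate the median of the 30 was 0.28, and 0 proteasome genes and 15 of all genes passed. The part of keratinocyte RNA in the result was otherwise not tested. The means of 8 blood markers (5.93 to 6.08 in HFD, 6.01 to 6.10 in ND) and of 5 endothelial (6.20 to 6.54, 6.03 to 6.40), 3 adipocyte (5.13 to 5.22, 5.13 to 5.22) and 4 muscle markers (5.91 to 6.10, 5.72 to 5.98) overlapped between the diets. In such bulk samples a change in the share of a cell type and a change in RNA per cell cannot be told apart.

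**Figure D5:**
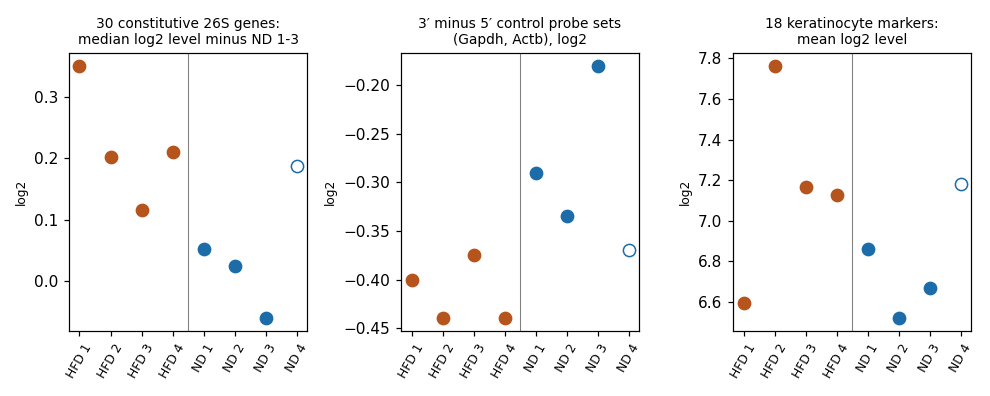
Values of each array, HFD left of ND and ND 4 as an open circle: the median log2 level of 30 constitutive 26S genes relative to ND 1 to 3, the 3′ level minus the 5′ level of Gapdh and Actb, and the mean log2 level of 18 keratinocyte markers. The subunits and the 3′ minus 5′ difference each separate HFD from ND 1 to 3, with ND 4 in or next to the HFD range. In keratinocyte markers HFD 1 is low, and ND 4 lies above ND 1 to 3.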

How the data were processed

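Each sample is 1 array. The values deposited by the authors are log2 levels of 45141 probe sets, made with RMA and the affy package per the submitters' processing notes, with versions and genome build not given in the sources used here. No further scaling was applied, and no detection calls were used. Of 29449 annotated probe sets, 28898 name 1 gene. Symbols were updated by Entrez identifier for 28689 of them (RefSeq, GRCm38.p6, names only).

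The members, classes and gene lists were chosen with earlier results of these data known. HFD 1 to 4 were compared with ND 1 to 3 over 17097 genes in limma 3.58.1 under R 4.3.3 (lmFit, eBayes with trend, 10.3 total degrees of freedom), with Benjamini-Hochberg adjustment over all genes at 0.05. All adjusted p-values come from limma. Tested on data simulated for this comparison over 17097 genes, it found 94.9% of genes given a change of 1 log2 and 63.5% of genes given 0.5, and 5.2% of its calls were false. The simulated noise was independent between genes, with no effect shared by the genes of an array. The 5.2% therefore need not hold for the real arrays. No 2 arrays were duplicates, since the SD of their difference was 0.165 or more.

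The text names members past the threshold, members without overlap of HFD with ND 1 to 3, the smallest p and the largest difference of each class, the catalytic, activator and inhibitor genes, members whose probe sets disagree, and, of each other list, genes past the threshold and the smallest p. Other names were added after their values were seen. Tables were made with Python 3.11.15 and figures with matplotlib 3.10.9. The alternatives were leaving out each array, including ND 4, blocking on the specimen number, a filter on dim genes, centring on medians, quantile normalization, robust eBayes, eBayes with no trend, weights per array, other probe set rules, the keratinocyte and 3′ minus 5′ covariates, and other thresholds.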

Additional observations from a re-analysis of the deposited data

Results flagged for a closer look

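In 2 of the 32 genes checked, 1 of the 4 HFD arrays stood far from the others, and chance flags about 1 in 20 such groups. Psmd1 was at 9.64 on HFD 3 and 9.89 to 9.90 on the other HFD arrays, a gap of 0.962 of the range. Psmd7 was at 9.66 on HFD 1 and 9.57 to 9.58 on the others, a gap of 0.889 of the range, which was only 0.09 log2 wide. In ND 4, the array left out of the comparison, 23 of the 47 proteasome genes (48.9%) lay above all of ND 1 to 3, beside 32.4% of all genes.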

How the results depend on the processing

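The median difference of the 30 constitutive subunits was positive under every alternative run, from 0.12 to 0.28, while the count of proteasome genes past the threshold, 3 higher and 0 lower, moved widely. It was 0 higher with ND 4 included, with the specimen number as a replicate block, with either covariate, with ND 3 and HFD 1 left out together, and at an adjusted p under 0.01. It was 5 with quantile normalization, with eBayes without trend and with every probe set tested alone, 7 without genes below the median gene and 8 at an adjusted p under 0.1. The counts over all genes moved too. From 914 they went to 6 with ND 4 included, 1 with the block, 15 with the keratinocyte covariate and 0 with the 3′ minus 5′ covariate. They were 268 with ND 3 and HFD 1 left out together, 928 with quantile normalization and 934 with eBayes without trend. With array weights they were 1061, and with the mean of probe sets 400. At an adjusted p under 0.1 or 0.01 all genes were not counted, so the counts there have no background beside them. Without genes below the median gene 1387 of 8554 passed. Leaving out 1 array at a time gave 0 to 3 higher and 0 to 1 lower. Of the genes in the other lists, 4 were higher and 0 lower, and 0 higher with ND 4 included, with the replicate block, with either covariate, with ND 3 and HFD 1 left out together and at 0.01. They were 2 higher with the mean of probe sets and 8 at 0.1. For these lists 1 was lower with array weights, without dimmer genes and at 0.1. Leaving out 1 array at a time gave 0 to 4 higher and 0 to 2 lower. The cause of these moves was not tested, except that fewer genes were tested without the dimmer ones.

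The specimen numbers did not pair the arrays, since same-numbered arrays had correlations of −0.18, −0.29 and −0.05 in their deviations from the group means and 0 of 6 arrays correlated best with its own number. With the replicate block 0 of 47 proteasome genes and 1 of all genes passed.

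Some differences that had not passed changed sign. With the 3′ minus 5′ covariate Psmb10 was −0.10, Psmb2 −0.0071, Psmb7 −0.022 and Psmb9 0.26. With ND 3 and HFD 1 left out Psmb10 was −0.09 and Psmb8 −0.057. Psme2 ranged from −0.153 to 0.0725 when 1 array was left out, above 0 without ND 1, HFD 2 or HFD 3, and was 0.11 with the keratinocyte covariate. With the mean of probe sets Psme3 was 0.045 and Psmf1 0.048, and with the keratinocyte covariate Uba6 was −0.032. Psmd7, Psma6 and Psma3 kept a positive difference in all 19 alternative fits, with adjusted p from 0.017, 0.0199 and 0.0217 up to 0.999 (limma). No detection calls were used, so values near background are known from their level alone.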
